A study of Rattus norvegicus with 18 samples.

Results

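The mast cell genes described here are 8 genes of granule proteases, surface receptors and histamine synthesis, measured in the dorsal root ganglia (DRG) of 18 rats. They are *Cpa3*, *Cma1*, *Tpsab1*, *Tpsb2*, *Kit*, *Fcer1a*, *Ms4a2* and *Hdc*. They were taken by gene symbol from the 15075 RefSeq identifiers of the poly(A) RNA count table, of which 14193 had a symbol, and all 8 were found with 1 identifier each. The list was drawn up because *Cpa3* had been lower with NT3 in earlier results of these rats. The values that compare bPYX+NT3 rats with either other group therefore stand as a description with no test. The comparison of bPYX+GFP with naïve rats and the variation between rats of a group were tested. That comparison uses the same rats as the comparisons that chose the list, so its p-values are not independent of the choice.

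There were 6 rats in each of 3 groups, all lister hooded rats, and the C6-C8 DRG of each rat, in the injected rats those of the treated side, made up 1 library. Naïve rats had no operation and no vector. The bPYX+GFP rats had both corticospinal tracts cut in the medullary pyramids and an AAV1 vector with GFP under the CMV promoter injected into forelimb flexor muscles on 1 side, and their ganglia were taken 10 weeks after the injury. The bPYX+NT3 rats had the same operation and time, with human neurotrophin-3 in the vector in place of GFP. No naïve rat received a vector or sham surgery, so injury and vector cannot be told apart in a comparison with naïve rats. Between 10057787 and 16002410 read-pairs per rat were counted on genes.

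The group of each rat was taken from the count table, whose column labels ("Sample 1" to "Sample 18") match the sample descriptions and through them the group titles. Each of the 18 sets of counts deposited rat by rat equalled the table's column for that rat, but 17 of the 18 sets are attached to a sample titled for another group. All values below use the groups of the count table, and the differences with the groups of the attached samples are given beside them.

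Mast cells are immune cells of connective tissue that are found around the vessels and in the sheaths of nerves and ganglia. Their granules hold histamine, heparin and proteases, and an antigen that cross-links IgE on the high-affinity IgE receptor releases them. Stem cell factor acting on KIT keeps mast cells alive, and the transcription factors GATA2 and MITF take part in switching on their genes. *Kit* is also expressed in sensory neurons and melanocytes, and basophils share the IgE receptor and *Hdc*, so that these genes differ in how far they mark mast cells. In whole ganglia, fewer mast cells and less RNA per mast cell cannot be told apart.

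The bases before the start of *Cpa3*, *Cma1* and *Kit* are shown, since the medians of the first and second stepped down from naïve to bPYX+GFP to bPYX+NT3 rats and the third varied least. The sequences are RefSeq's for GRCr8, a later build than the one used for counting, and each holds the 250 bases before the gene start, 5′ to 3′ on the strand of the gene. Capitals mark the GATA motif (AGATAA and also TGATAA, either of them also with G as the last base) and the motif CATGTG, which MITF binds, on either strand. *Cpa3* lies at chr2:104673238-104673487 (minus strand), *Cma1* at chr15:33390134-33390383 (minus strand) and *Kit* at chr14:32978813-32979062 (minus strand).
Cpa3: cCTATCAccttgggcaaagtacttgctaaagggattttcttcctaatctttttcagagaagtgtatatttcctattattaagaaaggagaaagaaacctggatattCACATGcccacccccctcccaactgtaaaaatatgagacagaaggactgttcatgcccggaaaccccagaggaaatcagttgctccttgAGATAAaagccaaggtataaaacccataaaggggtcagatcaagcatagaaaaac
Cma1: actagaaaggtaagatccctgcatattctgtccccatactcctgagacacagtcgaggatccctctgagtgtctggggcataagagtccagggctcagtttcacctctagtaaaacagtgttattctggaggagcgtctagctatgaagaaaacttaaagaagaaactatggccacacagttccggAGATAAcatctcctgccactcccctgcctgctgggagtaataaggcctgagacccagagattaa
Kit: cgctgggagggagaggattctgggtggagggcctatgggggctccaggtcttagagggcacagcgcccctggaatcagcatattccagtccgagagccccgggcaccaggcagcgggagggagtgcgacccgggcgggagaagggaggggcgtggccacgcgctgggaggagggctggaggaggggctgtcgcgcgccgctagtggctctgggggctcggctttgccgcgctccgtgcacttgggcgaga
The *Cpa3* stretch held 2 GATA motifs, the nearer 55 bases before the start, and a CATGTG 144 bases before it. The *Cma1* stretch held AGATAA 64 bases before the start and no CATGTG, and the *Kit* stretch held neither motif. A sequence was at hand for 7 of the 8 genes, not for *Ms4a2*. GATA motifs were in 3 of the 7 (*Cpa3*, *Cma1* and *Fcer1a*) and in 27% of 33469 rat promoters of this length. CATGTG was in 3 of the 7 (*Cpa3*, *Tpsb2* and *Fcer1a*) and in 12.1% of all promoters. None of the motifs overlapped in these stretches, and no binding was measured.

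*Cpa3* encodes carboxypeptidase A3, a granule protease of mast cells. Its level, in reads per 1000000 reads on genes after TMM normalization (CPM), was between 2.87 and 5.15 in naïve rats (median 4.10), between 2.64 and 4.03 in bPYX+GFP rats (median 2.96) and between 1.23 and 3.05 in bPYX+NT3 rats (median 2.40). These values rest on 44 to 75 reads per naïve rat, 31 to 43 per bPYX+GFP rat and 16 to 40 per bPYX+NT3 rat. The naïve median was above all 6 bPYX+GFP rats and all 6 bPYX+NT3 rats, yet the groups overlapped, because naïve rat 42 had 2.87 CPM and bPYX+NT3 rat 17 had 3.05 CPM. The lowest values were those of bPYX+NT3 rats 39 and 11, at 1.23 and 1.46 CPM.

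For bPYX+GFP against naïve rats the log2 fold change of *Cpa3* was -0.35 ± 0.16 (SE, n = 6 and 6; edgeR's quasi-likelihood test, unadjusted p = 0.0485, adjusted p = 1.00 over 11601 genes). A two-sided exact permutation test on log2 CPM gave p = 0.0455, where the smallest p that 6 against 6 allows is 0.00216. The difference was on the edge of what these rats could show, since leaving out 1 rat at a time gave p between 0.0119 and 0.126 and 8 of the 12 omissions gave p above 0.05. *Cpa3* was lower again in bPYX+NT3 rats, with log2 fold changes of -0.53 ± 0.22 against bPYX+GFP and -0.88 ± 0.22 against naïve rats. Those values are the pattern for which the genes were chosen.

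*Cma1* encodes mast cell chymase, a granule protease of connective tissue mast cells. It was between 1.31 and 2.85 CPM in naïve rats (median 2.20), between 0.987 and 2.36 in bPYX+GFP rats (median 1.68) and between 0.557 and 1.85 in bPYX+NT3 rats (median 1.32), from 6 to 33 reads per rat. The groups overlapped widely, with 5 of 6 bPYX+GFP rats and 6 of 6 bPYX+NT3 rats below the naïve median. The log2 fold change between bPYX+GFP and naïve rats, -0.30 ± 0.24, did not pass the test (unadjusted p = 0.244, exact permutation p = 0.208). Against bPYX+GFP and naïve rats, bPYX+NT3 rats differed by -0.40 ± 0.29 and -0.71 ± 0.28.

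*Tpsab1* and *Tpsb2* encode the tryptases, the other main granule proteases. Hardly any of their RNA was counted, with 0 to 7 reads of *Tpsab1* and 1 to 9 reads of *Tpsb2* per rat, too few for the filter of more than 10 reads in at least 6 rats. The highest *Tpsab1* value was 0.605 CPM in naïve rat 49 and the highest *Tpsb2* value 0.619 CPM in bPYX+GFP rat 57. A difference between bPYX+GFP and naïve rats was not detectable at this depth in either gene (exact permutation p = 0.225 for *Tpsab1* and 0.950 for *Tpsb2*). Read-pairs that aligned to several places (19.0 to 22.3% of those in the counts) were not counted. Whether any of them came from the tryptase genes was not tested, so the true level of these genes is uncertain.

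**Figure D1:**
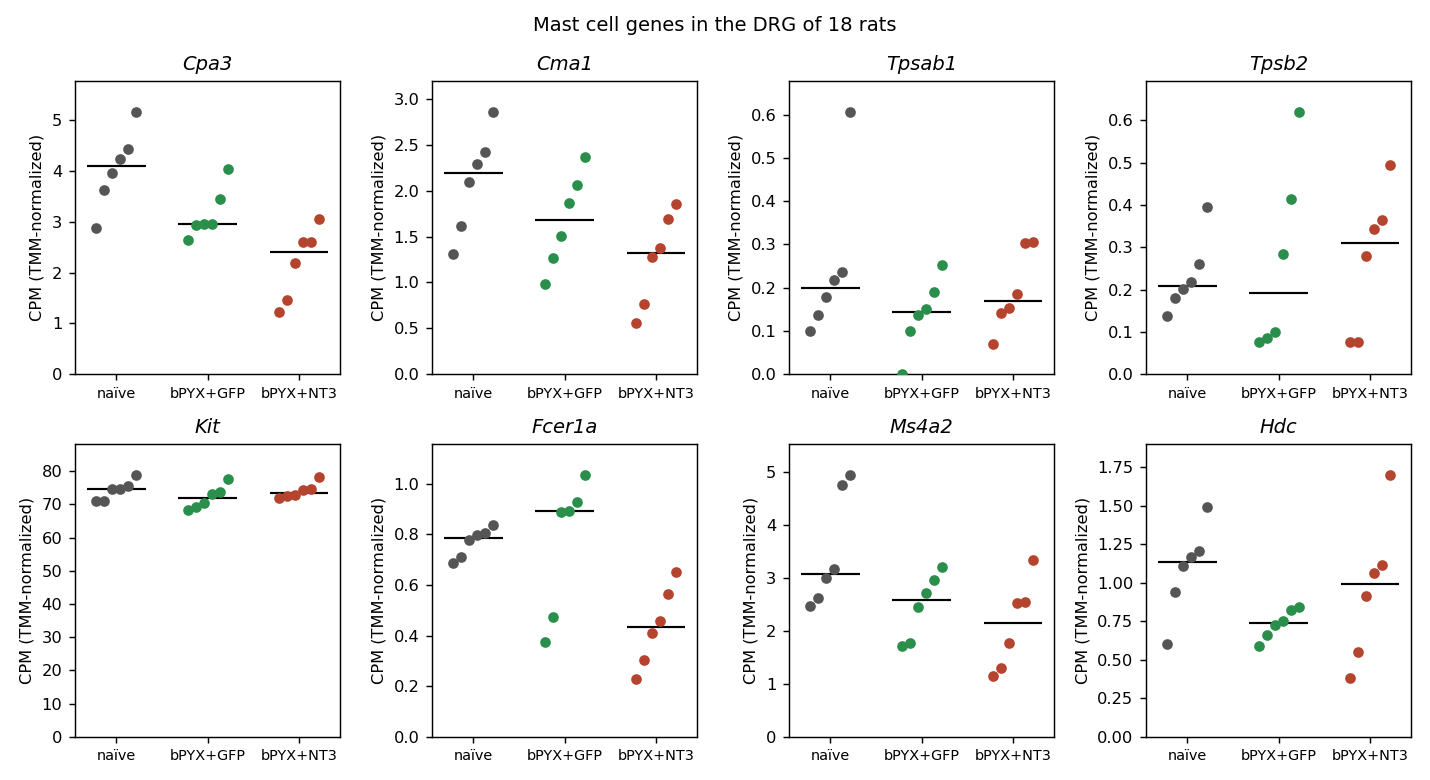
Level of each of the 8 mast cell genes in CPM (y axis, from 0) in the 6 rats of each group (points, 1 per rat, in order of level) with the group median (line). *Cpa3* medians step down from 4.10 to 2.96 to 2.40 CPM from naïve to bPYX+GFP to bPYX+NT3, while *Kit* stays between 68.4 and 78.8 CPM in all rats and the tryptases stay under 0.62 CPM.

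*Ms4a2* encodes the beta chain of the high-affinity IgE receptor, which amplifies its signal. Its level was between 2.46 and 4.93 CPM in naïve rats (median 3.07), between 1.72 and 3.21 in bPYX+GFP rats (median 2.58) and between 1.15 and 3.34 in bPYX+NT3 rats (median 2.14), from 18 to 55 reads per rat. Naïve rats 44 and 49 stood highest at 4.93 and 4.75 CPM, and the other naïve rats overlapped both injured groups. Its log2 fold change in bPYX+GFP against naïve rats was -0.48 ± 0.23 (unadjusted p = 0.0517, exact permutation p = 0.0887), just short of the threshold. The bPYX+NT3 rats differed by -0.25 ± 0.27 from bPYX+GFP rats and by -0.73 ± 0.28 from naïve rats.

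*Fcer1a* encodes the alpha chain of the same receptor, the chain that binds IgE. It had 3 to 14 reads per rat and passed the filter in no comparison. It was between 0.687 and 0.837 CPM in naïve rats (median 0.787), between 0.377 and 1.03 in bPYX+GFP rats (median 0.891) and between 0.230 and 0.650 in bPYX+NT3 rats (median 0.435). Every bPYX+NT3 rat lay below every naïve rat, which was so for 0.147% of the 14919 identifiers with a read in these rats. The naïve rats varied by 7.50% (coefficient of variation), less than the 31.4% that counting error alone gives at these reads, so the gap rests on few reads. A fit without the filter gave log2 fold changes of -0.83 and -0.81 for bPYX+NT3 rats against naïve and bPYX+GFP rats. For bPYX+GFP against naïve rats it gave -0.01, which did not pass the test (unadjusted p = 0.966, exact permutation p = 0.723).

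*Kit* encodes the receptor for stem cell factor. It was between 71.0 and 78.8 CPM in naïve rats (median 74.7), between 68.4 and 77.8 in bPYX+GFP rats (median 71.8) and between 72.1 and 78.1 in bPYX+NT3 rats (median 73.5), from 670 to 1249 reads per rat. All groups overlapped almost fully. In bPYX+GFP against naïve rats its log2 fold change was -0.04 ± 0.05 (unadjusted p = 0.510), and bPYX+NT3 rats differed by 0.03 ± 0.05 from bPYX+GFP and by -0.0031 ± 0.05 from naïve rats. *Kit* varied less between rats of a group than nearly all other genes, with a biological coefficient of variation of 0.0623, at percentile 1.42 of 11821 genes. *Cpa3* (0.197, percentile 73.1), *Hdc* (0.250, percentile 83.4), *Cma1* (0.254, percentile 83.9) and *Ms4a2* (0.274, percentile 87.0) varied more than the median gene (0.139).

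*Hdc* encodes histidine decarboxylase, which makes histamine. It was between 0.605 and 1.49 CPM in naïve rats (median 1.14), between 0.592 and 0.845 in bPYX+GFP rats (median 0.739) and between 0.384 and 1.70 in bPYX+NT3 rats (median 0.992). All 6 bPYX+GFP rats were below the naïve median, but the lowest naïve rat, rat 49, overlapped them. Its log2 fold change in bPYX+GFP against naïve rats was -0.56 ± 0.22 (unadjusted p = 0.0261, adjusted p = 1.00, exact permutation p = 0.0260). *Hdc* passed the filter there with 5 naïve rats and 1 bPYX+GFP rat over 10 reads, mostly through the group in which it was higher, and the bPYX+GFP rats varied by 13.1% where counting error alone gives 34.0%. Unlike *Cpa3*, it was spread over the whole range in bPYX+NT3 rats, from rat 39 at 0.384 to rat 11 at 1.70 CPM, and differed by -0.18 ± 0.32 from naïve rats.

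**Figure D2:**
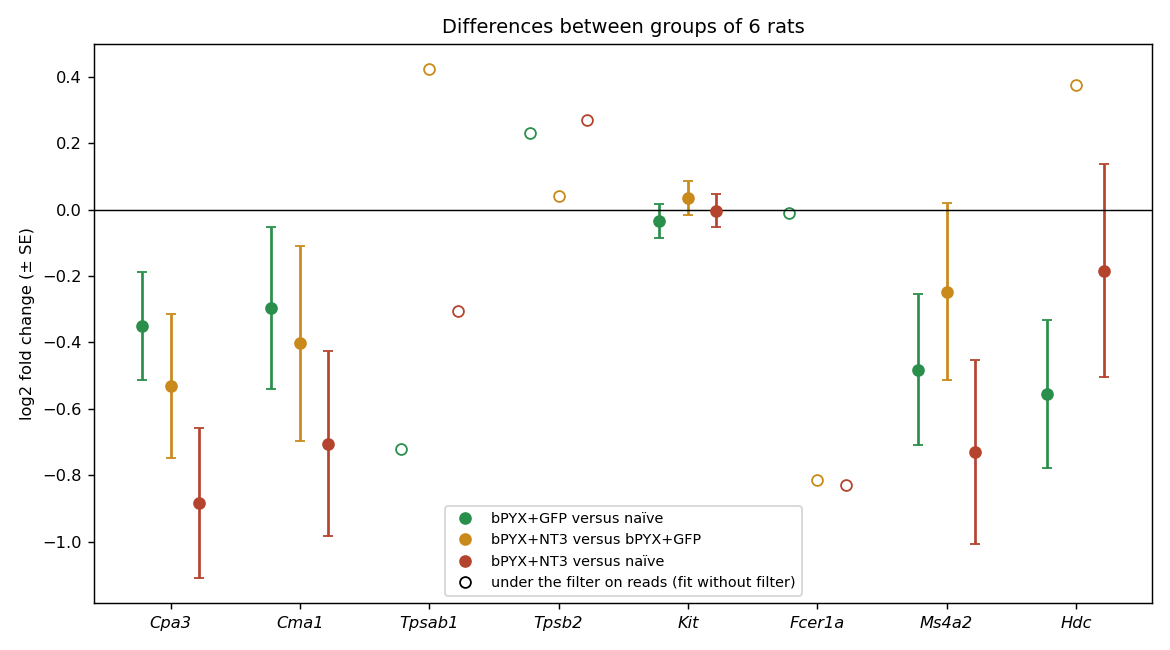
Log2 fold change of the 8 genes (y axis) in the 3 comparisons of 6 against 6 rats, as points with an SE derived from the F statistic of the edgeR fit. Open circles without an error are genes with too few reads, with the value from a fit without the filter. *Cpa3*, *Cma1* and *Ms4a2* lie below 0 in all 3 comparisons, down to -0.88 for *Cpa3* between bPYX+NT3 and naïve rats, and *Kit* lies within 0.04 of 0.

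Between bPYX+GFP and naïve rats, 5 of the 8 genes passed the filter. *Hdc* did so mostly through the naïve rats, where it was higher, so it is left out of the count, and it fell under the filter in 6 of the 12 omissions of a rat. Of the other 4, *Cpa3* alone was lower at an unadjusted p under 0.05 (1 of 4), against 3.25% of the 11601 genes tested in either direction and 2.52% in this direction. No gene of the 11601 had an adjusted p under 0.05 with edgeR's quasi-likelihood test, and 377 had an unadjusted p under 0.05. With Benjamini-Hochberg adjustment over all genes, edgeR's likelihood ratio test called 13 and DESeq2's Wald test 12 of the 11601. The median log2 fold change of the 4 genes was -0.32 (-0.35 with *Hdc*) and that of all genes tested 0.012. The calls of *Cpa3* and *Hdc* did not outlast a change of method, since DESeq2 called 0 of the 5 genes, the likelihood ratio test 1 (*Ms4a2*) and 1 fit over the 3 groups 0.
For bPYX+NT3 against bPYX+GFP rats the median log2 fold change of the 4 genes that passed the filter was -0.33, and against naïve rats that of 5 genes was -0.71, beside 0.0049 and 0.00051 over all genes. Nothing is read from these medians, as the genes were chosen on these comparisons, which also share rats.

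With the groups of the attached samples the values were others. *Cpa3* then differed by -0.08 between bPYX+GFP and naïve rats (unadjusted p = 0.767), and by 0.64 and 0.55 between bPYX+NT3 and bPYX+GFP or naïve rats, higher and not lower. *Ms4a2* differed by 0.24, 0.26 and 0.49 and *Cma1* by -0.25, 0.52 and 0.26 in the same order, *Hdc* by -0.02, -0.02 and -0.04, and *Kit* by -0.02, 0.04 and 0.02. Every direction given for bPYX+NT3 rats in *Cpa3*, *Cma1* and *Ms4a2* thus depends on the count table's own labels. For *Cpa3* in bPYX+NT3 rats, the study itself reported log2 fold changes of -0.53 against bPYX+GFP and -0.88 against naïve rats. Those are the values that the count table's labels give. The study listed *Cpa3* among the mRNAs modified in bPYX+NT3 rats and not between bPYX+GFP and naïve rats. The call of *Cpa3* between bPYX+GFP and naïve rats given above therefore differs from the study's listing. That call was lost with edgeR's likelihood ratio test.

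**Figure D3:**
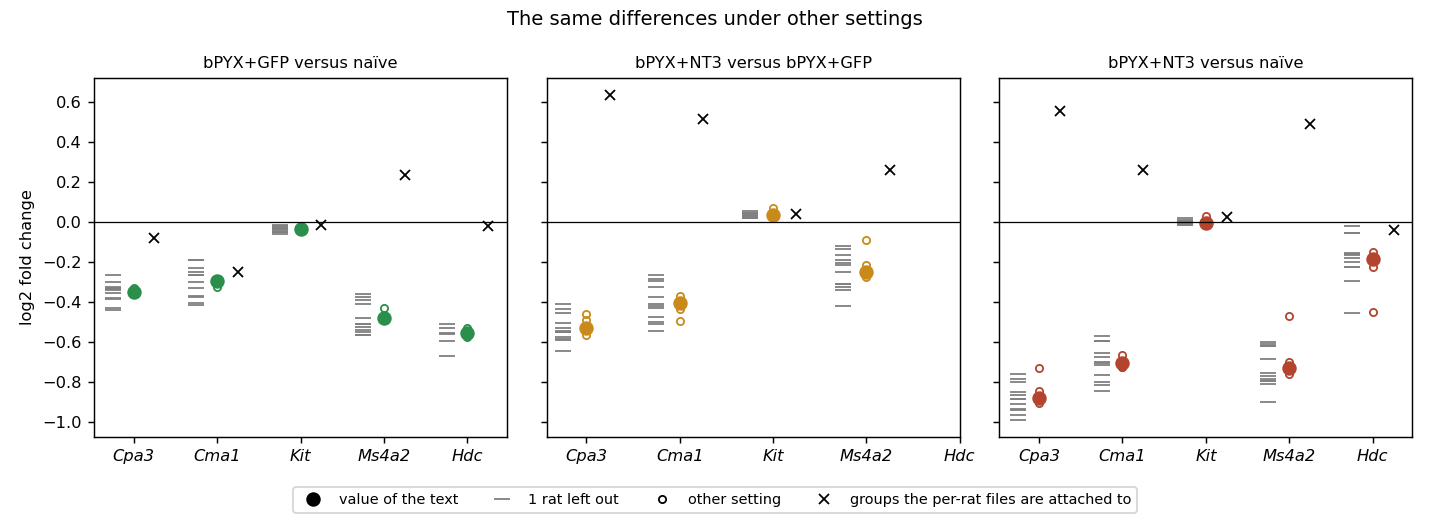
Log2 fold change (y axis) of the 5 genes that passed the filter in at least 1 comparison, under the fit of the text (large points), with each rat left out in turn (bars), under the other settings (open circles) and with the groups of the samples to which the per-rat counts are attached (crosses). Only the crosses move *Cpa3*, *Cma1* and *Ms4a2* above 0, as in *Cpa3* between bPYX+NT3 and bPYX+GFP rats (0.64 in place of -0.53), and *Kit* stays near 0.

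The summed level of the 7 genes other than *Kit* was between 10.2 and 14.1 CPM in naïve rats (median 11.5), between 7.89 and 11.3 in bPYX+GFP rats (median 9.25) and between 4.60 and 8.95 in bPYX+NT3 rats (median 7.73). The bPYX+GFP rats overlapped both other groups. The lower sum in bPYX+NT3 rats is of genes chosen on that comparison, with *Cpa3*, *Ms4a2* and *Cma1* its largest parts, and nothing is read from it.
Some genes of other cells of the ganglion were also lower in bPYX+GFP than in naïve rats. Of all genes tested there, 2.52% were lower at an unadjusted p under 0.05. Of 4 fibroblast genes, *Col1a1* (-0.49 ± 0.12, unadjusted p = 0.000882) and *Lum* (-0.23 ± 0.10, unadjusted p = 0.0316) were lower in bPYX+GFP than naïve rats, and all 4 had log2 fold changes under 0. Their summed level was between 1662 and 2271 CPM (naïve), between 1586 and 2046 CPM (bPYX+GFP) and between 1222 and 2167 CPM (bPYX+NT3). Of 4 Schwann cell genes, *Pmp22* (-0.31 ± 0.11, unadjusted p = 0.0119) was lower, and the sum was between 3450 and 4728 CPM (naïve), between 3042 and 3875 CPM (bPYX+GFP) and between 3345 and 3681 CPM (bPYX+NT3). The adipocyte gene *Adipoq* differed by 0.27 ± 0.83 between bPYX+GFP and naïve rats and was at -2.11 ± 0.73 for bPYX+NT3 against bPYX+GFP, with a summed adipocyte level of at most 4.95 CPM in bPYX+NT3 rats and up to 20.8 and 23.1 CPM in naïve and bPYX+GFP rats. None of the 5 macrophage genes passed the test between bPYX+GFP and naïve rats, and all 5 had log2 fold changes under 0. So had all 4 Schwann cell, all 2 neutrophil and all 2 red blood cell genes tested. Of T cell and of satellite glia genes, 2 of 3 were under 0. Under 0 were 43.9% of all genes tested in that comparison. Of neuron genes 6 were tested there and of endothelial cell genes 3, with 0 of either under 0 and 0 passing the test. The melanocyte genes *Tyr* and *Mlana* had at most 3 reads in any rat, and *Mcpt8*, a basophil protease, had 0 to 7. The part of these cells in the values of the mast cell genes was not tested.

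Whether the other genes varied with *Cpa3* between rats of the same group was tested with the log2 CPM of *Cpa3*, centred in each group, as a covariate over all 18 rats. Of the 7 other genes, 4 passed the filter, and *Ms4a2* had a positive slope (0.71 ± 0.31 log2 units per log2 unit of *Cpa3*, unadjusted p = 0.0351, adjusted p = 0.429). At an unadjusted p under 0.05 were 9.64% of the 11820 genes tested, and 3.05% with a positive slope, and none after adjustment (smallest adjusted p = 0.322). The likelihood ratio test called 1 of them after adjustment and limma-voom 0. In the same edgeR fit the slope of *Cma1* was 0.24 ± 0.38 (unadjusted p = 0.532), that of *Kit* 0.02 ± 0.06 (unadjusted p = 0.729) and that of *Hdc* -0.12 ± 0.38 (unadjusted p = 0.757). The edgeR slope of *Ms4a2* was 0.71 (unadjusted p = 0.161) without rats 39 and 11, the 2 farthest from the median of *Cpa3*, and 0.32 (unadjusted p = 0.287) with the share of read-pairs on no gene as a second covariate.

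Over the 18 rats, with group means removed, *Ms4a2* and *Cpa3* had Pearson's r = 0.50 (permutation p = 0.0851) and Spearman's rho = 0.55 (permutation p = 0.0397), and r = 0.37 without rats 39 and 11. *Fcer1a* and *Cpa3* had r = 0.59 (permutation p = 0.0121) and rho = 0.52 (permutation p = 0.0422), and r = 0.30 without those rats, so that r over the 18 rats rests in part on them. Taken group by group, r of *Fcer1a* with *Cpa3* was -0.71 (naïve), 0.71 (bPYX+GFP) and 0.88 (bPYX+NT3), from 3 to 14 reads of *Fcer1a* per rat. The 5 other genes had r between -0.18 and 0.14 (permutation p between 0.456 and 0.798), among 7 relations computed in all. *Cma1*, the other granule protease with more than a few reads, was among these (r = 0.12, -0.09 without the 2 rats). Among all 28 pairs of the 8 genes, r was between -0.38 and 0.59 with a median of 0.09, and 18 pairs were above 0. Rats with more reads on genes had less *Cpa3* within their group (r = -0.47, permutation p = 0.0586, rho = -0.45, permutation p = 0.0743, and r = -0.51 without rats 39 and 11), and those with more read-pairs on no gene had more (r = 0.46, permutation p = 0.0953, rho = 0.49, permutation p = 0.0571, and r = 0.46 without them). The part of these in the relations was not tested beyond the covariate above.

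**Figure D4:**
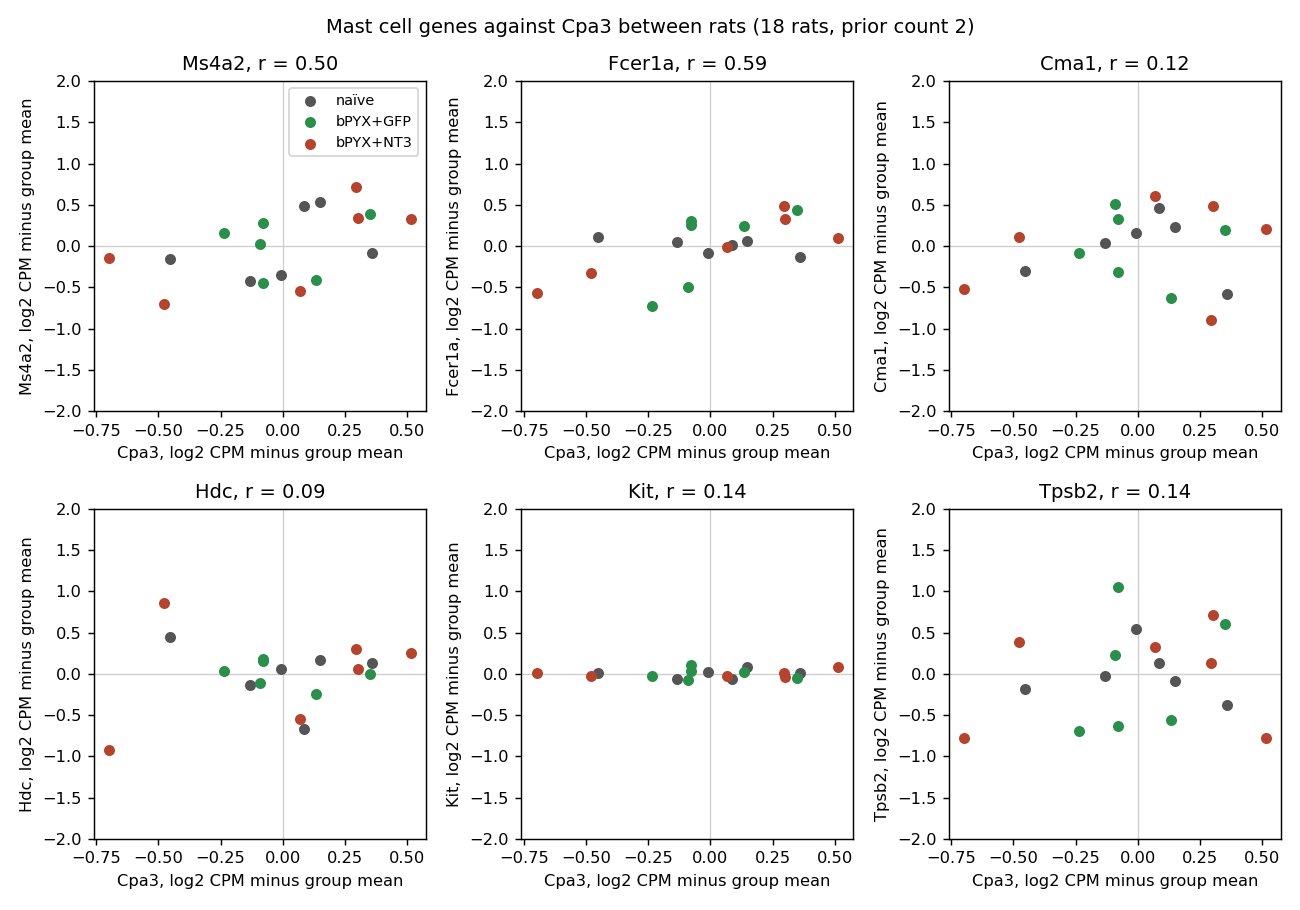
Log2 CPM of 6 genes (y axis) against that of *Cpa3* (x axis), each minus its group mean, in the 18 rats (points, coloured by group), with Pearson's r. *Ms4a2* and *Fcer1a* run upward with *Cpa3* (r of 0.50 and 0.59) with bPYX+NT3 rats at both ends, *Kit* is flat, and *Cma1*, *Hdc* and *Tpsb2* are scattered (r of 0.12, 0.09 and 0.14).

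The genes outside the 8 with the smallest p in this fit were *Sostdc1*, an inhibitor of BMP and Wnt signals (slope 0.62 ± 0.11, p = 2.73e-05, r = 0.83), *Tbx18*, a transcription factor of pericytes and other mural cells (0.68 ± 0.15, r = 0.77), *Tpi1l1* (-1.12 ± 0.26, r = -0.72), the thyroid hormone transporter *Slco1c1* (0.78 ± 0.20, r = 0.71), *Itprid2* (0.33 ± 0.08, r = 0.74), NM_001106468, which had no symbol (0.47 ± 0.12, r = 0.70), *Lancl1* (-0.29 ± 0.08, r = -0.75), *Il33* (0.47 ± 0.12, r = 0.70), *Pbld1* (1.23 ± 0.32, r = 0.68) and *Dnajc3* (0.39 ± 0.11, r = 0.70). These r describe 18 rats and were picked as extremes of 11820 genes.

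Of 36 other genes known from mast cells (further proteases, granule contents, eicosanoid synthesis, receptors and their signals, ligands and transcription factors), 32 were in the table with 33 identifiers. Between bPYX+GFP and naïve rats 18 were tested, and 1 (*Il33*) was lower and 0 higher at an unadjusted p under 0.05, where 3.25% of all genes were called and 2.52% called lower. IL-33 is an alarmin made mainly by stromal cells that activates mast cells through its receptor. *Il33* was between 154 and 193 CPM in naïve rats (median 170.2), between 108 and 167 in bPYX+GFP rats (median 144) and between 93.0 and 171 in bPYX+NT3 rats (median 133). The naïve median was above all 6 bPYX+GFP rats, 4 of which were below every naïve rat, with a log2 fold change of -0.30 ± 0.10 (unadjusted p = 0.00723, adjusted p = 0.921, exact permutation p = 0.0130). Larger differences, in *Hpgds* (prostaglandin D synthesis, -0.47 ± 0.27, unadjusted p = 0.0991) and *Alox5* (leukotriene synthesis, -0.40 ± 0.20, unadjusted p = 0.0622), did not pass. *Hpgds* had 6 naïve rats and 2 bPYX+GFP rats over 10 reads, so it passed the filter mostly through the group in which it was higher. The median over the 18, *Hpgds* included, was -0.11, with 14 under 0, where 43.9% of all genes tested were under 0. From which cells of the ganglion the reads of these 18 genes came was not tested.

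The comparisons with bPYX+NT3 rats are again given with no test. For bPYX+NT3 against bPYX+GFP rats the largest of 18 log2 fold changes were those of *Mcpt1l1* (-0.40 ± 0.27), *Alox5* (0.31 ± 0.25) and *Srgn*, the granule proteoglycan core (-0.22 ± 0.18). Between bPYX+NT3 and naïve rats the largest of 19 were those of *Ctsg* (-0.84 ± 0.62), *Hpgds* (-0.60 ± 0.33) and *Mcpt1l1* (-0.58 ± 0.17), and *Il33* was at -0.37 ± 0.12. Over 10 reads of *Hpgds* were in 6 naïve rats and 3 bPYX+NT3 rats, so here too it passed the filter mostly through the naïve rats. *Mcpt1l1*, a further chymase-like granule protease, was between 3.65 and 5.88 CPM in naïve rats (median 4.25), between 2.26 and 6.41 in bPYX+GFP rats (median 3.36) and between 2.34 and 3.53 in bPYX+NT3 rats (median 3.06). Its bPYX+NT3 and naïve rats did not overlap, as was so in this direction for 0.154% of 11693 genes, and bPYX+GFP rats spanned both. *Mcpt1* is a closely related gene, so the division of reads between them is uncertain.

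**Figure D5:**
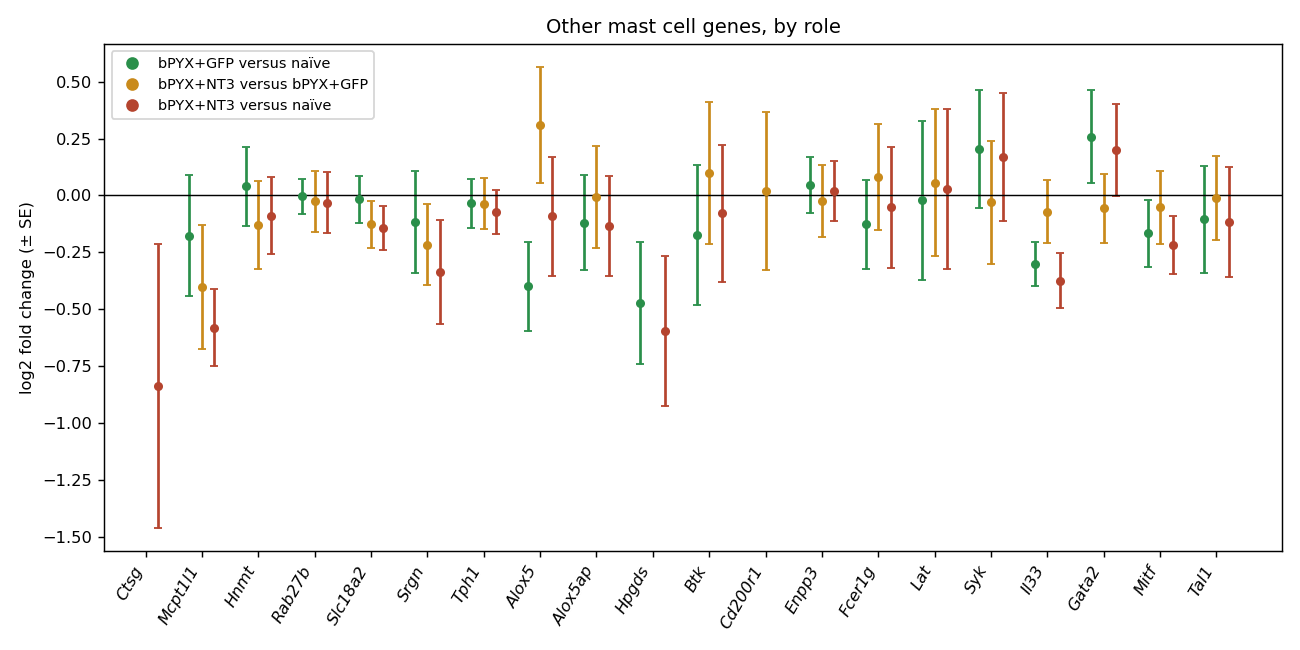
Log2 fold change with SE (y axis) of the other mast cell genes that passed the filter, ordered by role, in the 3 comparisons of 6 against 6 rats. *Mcpt1l1* steps down to -0.58 between bPYX+NT3 and naïve rats and *Il33* is at -0.30 and -0.37 against naïve rats in bPYX+GFP and bPYX+NT3 rats, and *Ctsg*, tested in 1 comparison only, has the widest SE (0.62).

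In the fit on *Cpa3*, 20 of these genes were tested and 3 had a positive slope at an unadjusted p under 0.05, where 9.64% of all genes were called and 3.05% with a positive slope. They were *Il33* (0.47 ± 0.12, unadjusted p = 0.00124), *Enpp3*, an ectoenzyme of activated mast cells and basophils (0.41 ± 0.16, unadjusted p = 0.0210), and *Mitf* (0.42 ± 0.17, unadjusted p = 0.0282). Their adjusted p in edgeR's test was 0.429 in each case. Group medians were between 29.6 and 32.6 CPM for *Enpp3* and between 32.2 and 36.3 CPM for *Mitf*. From which cells of the ganglion the reads of these 3 genes came was not tested. With the share of read-pairs on no gene as a covariate 1 of the 20 had a p under 0.05, where 2.04% of all genes did.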

How the data were processed

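Poly(A) RNA libraries of cervical DRG from 18 rats in 3 groups of 6 were analysed. The authors used TopHat2 for alignment to the Rnor_6.0 build, Picard to remove duplicates and HTSeq for counting, and deposited whole, unnormalized counts per RefSeq identifier, from a kit that keeps strand (the strand setting of the counting is not given in the sources used here). Symbols came from RefSeq. Depth was 10057787 to 16002410 read-pairs on genes per rat. Read-pairs on no feature (30.8 to 34.6%), ambiguous (2.79 to 3.41%) or on several places (19.0 to 22.3%) stayed out of library sizes and tests. At 10 to 50 reads counting error is large.

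The 8 genes, the lists and the tests were chosen with earlier results of these data known. Pairs of groups were fitted in R 4.3.3 with edgeR 4.0.16 (TMM, glmQLFit and glmQLFTest, no covariate, Benjamini-Hochberg over genes exceeding 10 reads in at least 6 of 12 rats). For covariation, 1 fit over 18 rats held the group and the centred log2 CPM of *Cpa3* (prior count 2). Each SE is the absolute log2 fold change or slope divided by the square root of the test's F statistic. Two-sided exact permutation tests served for single genes, and correlations were tested by 100000 shuffles within groups. The fits were run on simulated counts in which *Cpa3* had far more reads than in these rats. That run does not show how they behave at low counts. Named are the 8 genes in every comparison, other mast cell genes with unadjusted p under 0.05 and the 3 largest changes, the 10 genes with the smallest p in the covariation fit, and markers set beside a result. Fibroblast, Schwann cell, adipocyte, macrophage, melanocyte and further marker lists were summed per rat.

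Alternatives were the likelihood ratio test, DESeq2 1.42.0, edgeR with DESeq2's size factors or with library size alone, no filter, filterByExpr, 1 fit over the 3 groups, the share of read-pairs on no feature as a covariate, limma 3.58.1 voom, a prior count of 0.5, no group term, the groups of the attached samples and leaving out each rat. A replicate block was added after seeing the data. Python 3.11.15, pandas, numpy, scipy and matplotlib made the tables and plots.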

Additional observations from a re-analysis of the deposited data

Results flagged for a closer look

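In groups of 6 rats, the highest or lowest value was set apart by a gap of more than 0.625 of the group's range (Dixon's limit) in 8 of the 63 sets of 6 values examined, where chance gives about 1 in 20. Among the 24 sets of the 8 mast cell genes this held once, for *Tpsab1* in naïve rat 49 at 0.605 CPM, a value that rests on 7 reads.

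The other 7 were summed levels of other cells' marker genes. These were the neuron genes in bPYX+GFP rat 57 (4279 CPM), the satellite glia genes in naïve rat 42 (577 CPM), the T cell genes in bPYX+GFP rat 21 (16.0 CPM) and bPYX+NT3 rat 17 (14.3 CPM), the red blood cell genes in bPYX+NT3 rat 11 (126 CPM), the melanocyte genes in bPYX+NT3 rat 17 (0.305 CPM) and the skeletal muscle genes in bPYX+GFP rat 57 (6.94 CPM). Rat 42 had the lowest *Cpa3* of the naïve rats, rat 21 the lowest of the bPYX+GFP rats and rat 17 the highest of the bPYX+NT3 rats. The other rats named here were at neither end of their group in *Cpa3*. They were naïve rat 49 (4.24 CPM), bPYX+GFP rat 57 (2.96 CPM) and bPYX+NT3 rat 11 (1.46 CPM). The part of these cells in the values was not tested.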

How the results depend on the processing

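The counts in this paragraph include *Hdc*, which was left out of the count above. Between bPYX+GFP and naïve rats, the 2 calls among the 5 mast cell genes became 0 with DESeq2, with 1 fit over the 3 groups and with the groups of the attached samples, and 1 with the likelihood ratio test, with DESeq2's size factors and without the filter. They stayed at 2 with filterByExpr and rose to 3 with library size alone and with the share of read-pairs on no feature as a covariate, where 7.31% of all genes were called. With each rat left out in turn the count was between 0 (rats 44, 45 and 57) and 3, and *Hdc* fell under the filter in 6 of the 12 omissions. The comparisons with bPYX+NT3 rats were not tested, since they chose the genes. There the median log2 fold change of the genes that passed the filter, -0.33 against bPYX+GFP and -0.71 against naïve rats, turned to 0.26 in both with the attached groups, and without the filter it was -0.11 and -0.51 over all 8 genes.

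With the attached groups *Ms4a2* turned to 0.24 between bPYX+GFP and naïve rats, *Cpa3* to 0.64 and 0.55 for bPYX+NT3 against bPYX+GFP and naïve rats, and *Cma1* and *Ms4a2* to 0.26 and 0.49 against naïve rats. The cause was not tested beyond the difference in grouping.

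Among the other mast cell genes, the 1 call between bPYX+GFP and naïve rats became 3 with the no-feature share and 0 with the attached groups, and was 1 to 3 with a rat left out. Their median in the comparisons with bPYX+NT3 rats (-0.03 against bPYX+GFP and -0.09 against naïve rats) moved by less than the spread between rats under every setting tried.

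In the fit on *Cpa3*, the 1 call (*Ms4a2*) became 0 with library size alone, with the no-feature share, without the 2 rats farthest from the median and without rat 44, 18, 11, 23 or 40, and 2 without the group term, and was 0 to 1 with a rat left out. The share of all genes called there was between 1.73 and 48.5% with a rat left out. The 3 calls among other genes became 5 without the group term, 6 with the attached groups and 1 with the no-feature share, and were between 1 and 5 with a rat left out. Slopes that were not called crossed 0: *Cma1* was at -0.17 without the 2 farthest rats and between -0.028 and 0.46 with a rat left out, *Kit* at -0.0098 with library size alone, -0.017 with the attached groups and between -0.010 and 0.039 with a rat left out, and *Hdc* at 0.11 with limma-voom, 0.025 without the group term, 0.073 with the attached groups, 0.43 with the no-feature share and between -0.64 and 0.43 with a rat left out.

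A replicate block, added after seeing the data, left 0 of 5 calls between bPYX+GFP and naïve rats and 2 among the other genes. The medians for bPYX+NT3 against bPYX+GFP and naïve rats were -0.35 and -0.72 with the block, which raised the share of all genes with an unadjusted p under 0.05 from 6.01 to 25.3% in the comparison of bPYX+NT3 with naïve rats. There the deviations from the group means of rats with the same replicate number correlated between 0.29 and 0.53 in 5 of 6 pairs and at -0.30 in the other, and 5 of 12 rats correlated best with their own number. In the other comparisons r was between -0.40 and 0.50, over 0.1 in 2 of 6 pairs for bPYX+GFP against naïve and in 3 of 6 for bPYX+NT3 against bPYX+GFP rats. As not every pair correlated and no label ties the numbers to a shared source, the rats were not treated as paired, and whether some share a source was not tested.

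At 0 to 75 reads per rat for all genes but *Kit*, counting error is a large part of the spread, and small differences were not detectable at this depth.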
